A study of Homo sapiens with 12 samples.

Results

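The 36 genes described here encode aminoacyl-tRNA synthetases, 20 of the cytosol and 16 of the mitochondrion, which carry the suffix 2 in their symbols. The rule that picks them uses gene symbols and no measured value, although the set was drawn up with earlier results of these data known, and they were compared by compartment. All 36 were among the 18962 gene symbols found in both deposited tables (20029 rows in the selinexor table and 19610 in the knockdown table), and all 36 had a mean value of at least 10 in each table and were tested. The cells were IMR5, a MYCN-amplified neuroblastoma line established from a human tumour, and total RNA was sequenced. Cells had been kept for 24 h with 100 nM selinexor, a drug that blocks the nuclear exporter XPO1, or with its solvent DMSO, for which the labels give no duration. Other cells had been nucleofected with an ON-TARGETplus siRNA against XPO1, numbered 10, or with negative control siRNA, and were lysed 72 h later. There were 3 libraries in each of the 4 groups, all of this 1 cell line. Whether replicates were separate cultures is not in the labels, so the p-values speak of the spread among these libraries alone, and that spread may be technical.

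Each aminoacyl-tRNA synthetase joins an amino acid to its own tRNAs, the step at which the genetic code is read from RNA into protein. Animal cells keep a cytosolic set for nuclear-encoded messages and a second, nuclear-encoded set that is imported to serve mitochondrial translation. GARS and KARS each supply both compartments from a single gene, and EPRS carries glutamyl- and prolyl- activities in one polypeptide. Several cytosolic enzymes assemble with the scaffolds AIMP1, AIMP2 and EEF1E1 into the multisynthetase complex. Many cytosolic synthetase genes are known targets of ATF4, the transcription factor of the amino acid and integrated stress response, which binds C/EBP-ATF response elements, and MYC proteins bind E-boxes in promoters of growth genes.

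Because of these 2 known inputs, the promoters were searched for the core TGATGNAA of the C/EBP-ATF response element and for the E-box CACGTG, each on both strands and with no overlap between the motifs. Promoter sequence came from RefSeq (GRCh38.p14), 250 bases before to 50 bases after the start of each gene, and 30 of the 36 genes matched, 16 cytosolic and 14 mitochondrial. DARS, LARS, VARS, YARS, AARS2 and VARS2 had no entry. TGATGNAA was found in 6 of 16 cytosolic promoters (37.5%), in 1 of 14 mitochondrial promoters (7.14%) and in 1003 of all 27305 promoters of the same length (3.67%). The 7 windows are shown on the strand of the gene with the match in capitals and 11 bases on either side, since the expression values of these genes are given further on.
AARS, chr16:70289675-70289704, minus strand: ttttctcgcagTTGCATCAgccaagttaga
CARS, chr11:3057407-3057436, minus strand: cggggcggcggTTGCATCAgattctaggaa
IARS, chr9:92293692-92293721, minus strand: ttttcagcgcgTTGCATCAcctccgtgcgc
MARS, chr12:57488053-57488082, plus strand: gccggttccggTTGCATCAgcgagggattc
NARS, chr18:57621804-57621833, minus strand: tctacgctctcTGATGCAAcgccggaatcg
TARS, chr5:33440956-33440985, plus strand: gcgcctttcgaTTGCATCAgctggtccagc
YARS2, chr12:32756076-32756105, minus strand: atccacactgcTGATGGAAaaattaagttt
The 6 cytosolic windows hold the same 8 bases read from either strand, and the YARS2 window differs from them within the match. The first base of the match lay between positions -13 and 15 relative to the start in CARS, IARS, MARS, NARS and TARS, and at -187 in AARS and -197 in YARS2.

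The E-box CACGTG was found in 1 of 16 cytosolic promoters (6.25%), in 3 of 14 mitochondrial promoters (21.4%) and in 2030 of all 27305 promoters (7.43%). Its 4 windows are shown in the same way, because the mitochondrial enzyme with the largest response to selinexor, EARS2, is among them.
IARS, chr9:92293867-92293894, minus strand: ggttcgttttcCACGTGgaggcgcaaaa
CARS2, chr13:110706502-110706529, minus strand: gctgggatgcaCACGTGcttcgctaaca
EARS2, chr16:23557349-23557376, minus strand: agggagaagccCACGTGtgctattccat
MARS2, chr2:197705347-197705374, plus strand: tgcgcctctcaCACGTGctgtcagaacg
The E-box began within 15 bases before the start in CARS2, EARS2 and MARS2 and at -186 in IARS. These matches describe the letters of the windows; binding of ATF4 or MYCN was not measured here.

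Depth, estimated from the steps of low values, was 26.8 to 33.8 M reads per selinexor library, 39.5 to 40.9 M with DMSO, 33.5 to 55.8 M with XPO1 siRNA and 40.6 to 54 M with control siRNA. Selinexor replicate 1 stood apart: its log2 values correlated at 0.974 and 0.977 with replicates 2 and 3, which correlated at 0.991 with each other. Selinexor counts per class and list, and the changes of most synthetase genes named, are therefore given with and without it. Changes of single genes from the other lists are given with all libraries only. The knockdown lowered XPO1 itself 4.33-fold, to 4260, 4377 and 4397 normalized counts with XPO1 siRNA, against 18568, 18950 and 18908 with control siRNA. XPO1 had 15544, 22513 and 21165 normalized counts with selinexor, against 17886, 18899 and 18356 with DMSO, and was not called unless selinexor replicate 1 was left out (log2 fold change 0.25, limma adjusted p = 0.00191). Markers of adrenergic neuroblastoma were present, 11 of 12 in the selinexor table and 12 of 12 in the knockdown table (TH, tyrosine hydroxylase, averaged under 10 there). Their summed value was 94422 to 112315 with selinexor and 79509 to 82001 with DMSO, and 107918 to 115109 with XPO1 siRNA and 85865 to 88186 with control siRNA. Summed Schwann and glial markers (4 of 6 in each table) were 212 to 219 with selinexor and 94.4 to 108 with DMSO, and summed mesenchymal markers (7 of 8) were 17968 to 20771 with selinexor and 23757 to 24825 with DMSO. In the knockdown table the glial sums were 165 to 180 with XPO1 siRNA and 115 to 152 with control siRNA, and the mesenchymal sums (6 of 8) were 17742 to 17941 with XPO1 siRNA and 23305 to 24033 with control siRNA. Of 6 leukocyte markers only CD74 was in the tables (at most 19 in any library), 3 of 5 endothelial markers summed to at most 120 in any library, and no marker found was at 0 in every library. RN7SL1 and RN7SL2, which encode the RNA of the signal recognition particle, made up 12.6% to 16% of counts with selinexor and 9.4% to 9.72% with DMSO, and 10.8% to 12.4% with XPO1 siRNA and 12.6% to 13.1% with control siRNA. The part of these markers and RNAs in the results that follow was not tested.

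Levels were first set per length, as the mean normalized count per kb of the principal GENCODE 29 transcript. On this scale the cytosolic enzymes had a median level of 1304 with selinexor and 1820 with DMSO, and the mitochondrial enzymes 310 with selinexor and 444 with DMSO. In the knockdown table, which the authors normalized separately, the cytosolic median level was 1690 with XPO1 siRNA and 2170 with control siRNA, and the mitochondrial one 381 with XPO1 siRNA and 407 with control siRNA. SARS, the seryl enzyme, had the highest cytosolic level per kb in all 4 groups (4598 with selinexor, 4917 with DMSO, 5817 with XPO1 siRNA and 6469 with control siRNA). The highest mitochondrial level per kb was that of IARS2, the isoleucyl enzyme, at 1502 with selinexor, 1938 with DMSO, 1989 with XPO1 siRNA and 2277 with control siRNA. FARS2, the phenylalanyl enzyme, was lowest in selinexor, DMSO and XPO1 siRNA cells (96.7, 137 and 120 per kb), and WARS2, the tryptophanyl enzyme, in control siRNA cells (145 per kb). The cytosolic and mitochondrial ranges overlapped in each group.

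**Figure D1:**
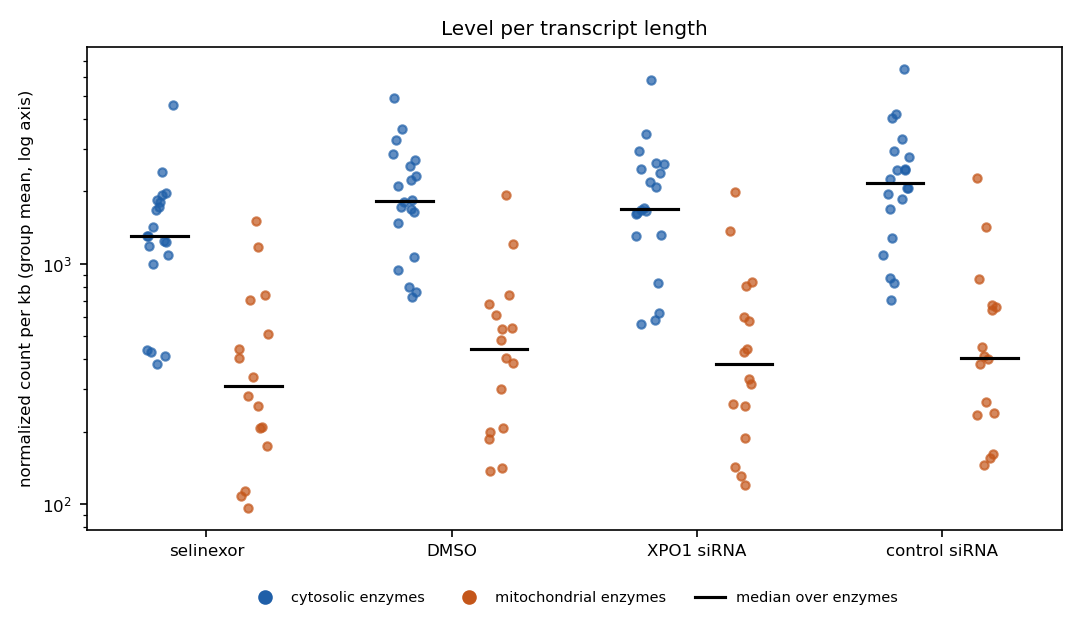
Level per transcript length, as normalized count per kb on a log axis (group mean of 3 libraries), with 1 point per enzyme for 20 cytosolic and 16 mitochondrial enzymes in each group and a bar at the median. The cytosolic median lies above the mitochondrial one in all 4 groups (1304 and 310 with selinexor), and the 2 ranges overlap.

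Selinexor lowered most cytosolic synthetase transcripts. Of the 20 cytosolic genes, 15 fell, 0 rose and 5 were not called against DMSO, with a median log2 fold change of -0.56 (range -1.11 to 0.16). Over all 18128 genes tested, 49.2% were called, 26.3% lower and 22.9% higher, and the median was -0.01 (limma on log2(value + 1), Benjamini-Hochberg adjusted over all genes, threshold 0.05). Without selinexor replicate 1, 18 of 20 fell and 1 rose, with a median of -0.53, where 33.2% of all genes were called lower and 27.9% higher. The 3 selinexor libraries lay below the 3 DMSO libraries for 15 of the 20 genes, a pattern found in 32.9% of all genes tested. These were the same 15 that were called lower. In these bulk samples, fewer cells of a type and less RNA per cell cannot be told apart.

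Among the 8 enzymes of the multisynthetase complex, 7 fell with selinexor (median log2 fold change -0.53), where 26.3% of all genes tested were called lower. When selinexor replicate 1 was left out, 7 fell and 1 rose (median -0.47). In that setting 33.2% of all genes were called lower and 27.9% higher. IARS, the isoleucyl enzyme (hg19, chromosome 9, 94972489 to 95056039, minus strand), had 8209, 10022 and 9387 normalized counts with selinexor, against 16486, 17415 and 16984 with DMSO. MARS, the methionyl enzyme that also charges the initiator tRNA, had 5322, 5490 and 4999 normalized counts with selinexor, against 7974, 8639 and 8377 with DMSO. For both genes every selinexor library lay far below every DMSO library. IARS was 1.85-fold lower (log2 fold change -0.89, SE 0.0922, limma adjusted p = 1.27e-04) and MARS 1.58-fold lower (-0.66, SE 0.0779, adjusted p = 2.45e-04). DARS, the aspartyl enzyme, was 1.58-fold lower, RARS (arginyl) 1.47-fold, LARS (leucyl, known as an amino acid sensor upstream of mTORC1) 1.39-fold and EPRS 1.37-fold. Without selinexor replicate 1 the log2 fold changes were -0.81 for IARS, -0.67 for MARS, -0.55 for DARS, -0.47 for RARS, -0.43 for LARS and -0.37 for EPRS, all still called lower. KARS, which serves both compartments, had 2521, 2861 and 2461 normalized counts with selinexor, against 3658, 3778 and 3612 with DMSO. Its groups were well apart (1.41-fold lower, log2 fold change -0.50, SE 0.0853, limma adjusted p = 0.00173; -0.47 without selinexor replicate 1).

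QARS, the glutaminyl enzyme, was the exception in the complex. It had 5622, 5547 and 5213 normalized counts with selinexor, against 4673, 4925 and 5067 with DMSO. Its libraries did not overlap, with selinexor the higher group, as in 28.8% of all genes tested. It was not called (log2 fold change 0.16, limma adjusted p = 0.116), but passed without selinexor replicate 1 (0.14, adjusted p = 0.0364). Its values, like those of VARS, FARSA, HARS, HARS2, VARS2 and LARS2, are given because they depart from the rest of the set, and these genes were picked after their values were seen.

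The other 12 cytosolic genes held the largest changes with selinexor, and 8 of the 12 fell (median log2 fold change -0.61), beside the same 26.3% of all genes. When selinexor replicate 1 was left out, 11 of the 12 fell (median -0.61), beside 33.2% of all genes. AARS, the alanyl enzyme (chromosome 16, 70286198 to 70323447, minus strand), had 1675, 1479 and 1401 normalized counts with selinexor, against 3117, 3321 and 3343 with DMSO. FARSB, the beta subunit of the phenylalanyl enzyme (chromosome 2, 223435255 to 223521057, minus strand), had 1069, 1465 and 1345 with selinexor, against 2670, 2658 and 2748 with DMSO. YARS, the tyrosyl enzyme (chromosome 1, 33240840 to 33283755, minus strand), had 3410, 3276 and 3013 with selinexor, against 6643, 6828 and 6923 with DMSO. The highest selinexor library of each of these 3 genes was still well under its lowest DMSO library. AARS was 2.15-fold lower (log2 fold change -1.11, SE 0.0916, limma adjusted p = 3.7e-05), FARSB 2.1-fold (-1.07, SE 0.119, adjusted p = 1.79e-04) and YARS 2.1-fold (-1.07, SE 0.0793, adjusted p = 1.9e-05). Without selinexor replicate 1 their log2 fold changes were -1.18, -0.94 and -1.11.

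WARS, the tryptophanyl enzyme, had 1132, 1427 and 1288 normalized counts with selinexor, against 2158, 2431 and 2471 with DMSO (1.84-fold lower, limma adjusted p = 2.98e-04). CARS, the cysteinyl enzyme, had 1095, 1283 and 1076 with selinexor, against 1862, 2002 and 2004 with DMSO (1.7-fold lower, adjusted p = 3.28e-04). Neither gene showed any overlap of libraries. TARS, the threonyl enzyme, had 5819, 6521 and 5979 normalized counts with selinexor, against 9465, 9719 and 9676 with DMSO, and was 1.58-fold lower (log2 fold change -0.66, limma adjusted p = 2.46e-04). GARS, the glycyl enzyme of both compartments, had 4709, 4374 and 4544 with selinexor, against 6600, 6855 and 6717 with DMSO, and was 1.48-fold lower (-0.57, adjusted p = 4.01e-04). In both, the libraries of the 2 groups were clearly apart. NARS, the asparaginyl enzyme, was 1.47-fold lower. The falls without selinexor replicate 1 were 1.73-fold for WARS, 1.66-fold for CARS, 1.54-fold for TARS, 1.51-fold for GARS and 1.37-fold for NARS.

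The 2 subunits of the cytosolic phenylalanyl enzyme differed in selinexor replicate 1. FARSA, the alpha subunit, had 2929, 2152 and 2012 normalized counts with selinexor, against 2881, 3133 and 2916 with DMSO, so that selinexor replicate 1 alone lay among the DMSO libraries. It was not called with all libraries (log2 fold change -0.35, limma adjusted p = 0.0634) and was called lower without that replicate (-0.52, adjusted p = 1.16e-05). VARS, the valyl enzyme, showed the same layout, with 6403, 4818 and 4811 normalized counts with selinexor, against 6025, 6580 and 6468 with DMSO. Its log2 fold change was -0.26 (adjusted p = 0.101), and -0.40 without selinexor replicate 1 (adjusted p = 4.11e-05). SARS had a log2 fold change of -0.10 (adjusted p = 0.323; -0.13 and 0.0479 without selinexor replicate 1).

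**Figure D2:**
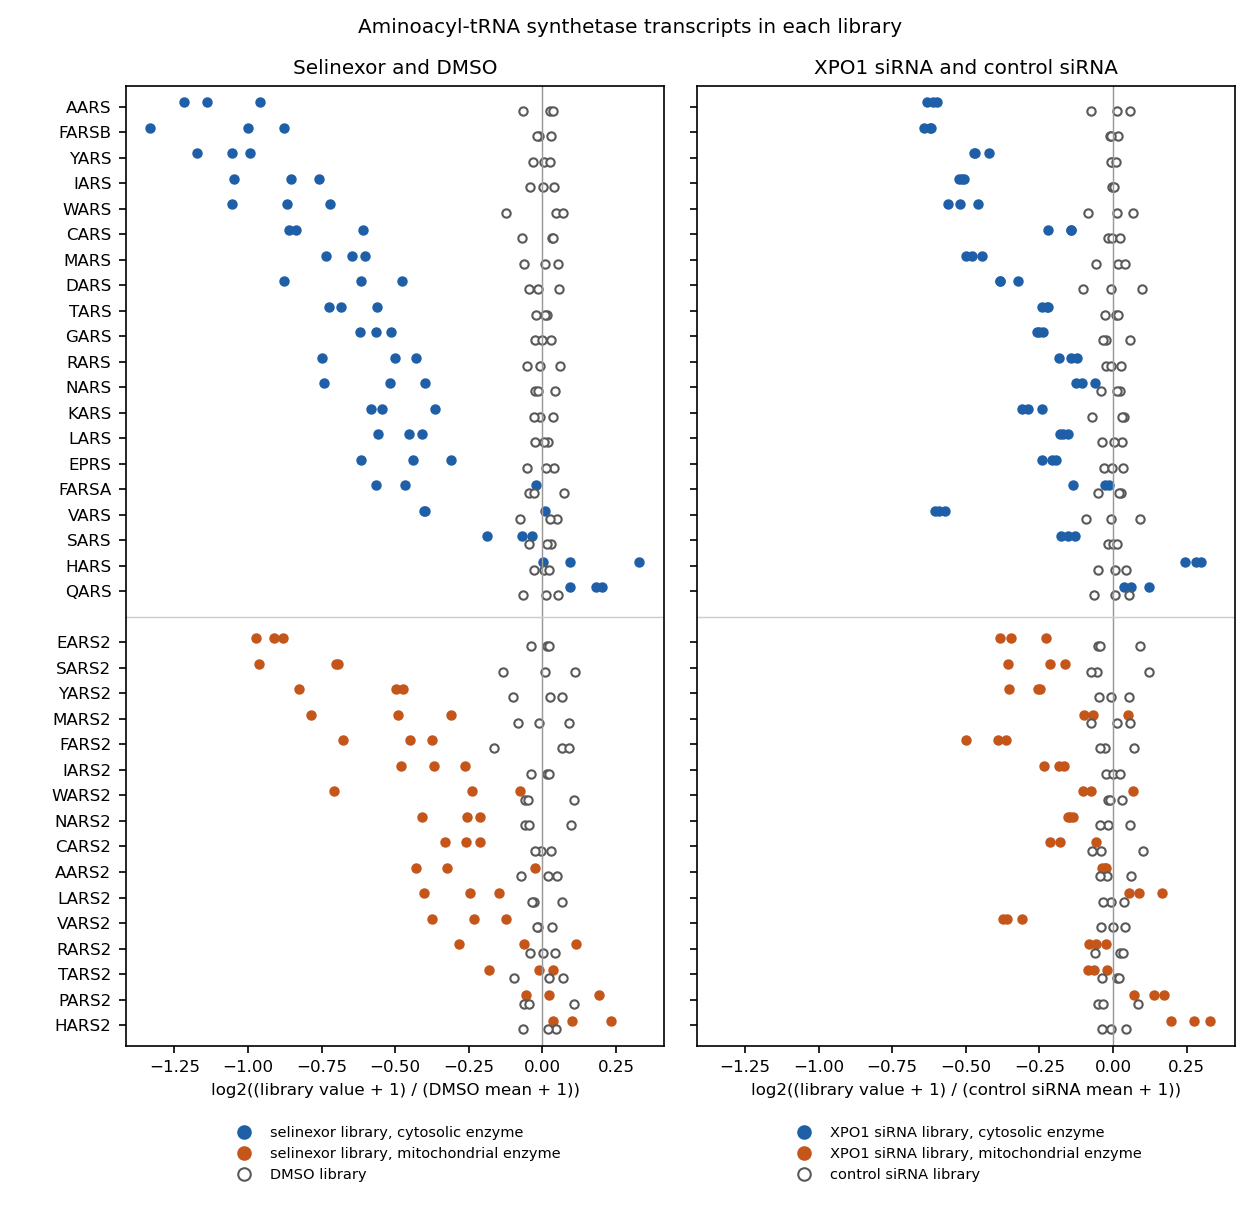
Each library's value for the 36 genes as log2((value + 1) / (mean of the DMSO or control siRNA libraries + 1)), with selinexor (left) and XPO1 siRNA (right) libraries as filled points and DMSO or control siRNA libraries as open points, 3 libraries per group. Most filled points lie left of the open ones for cytosolic enzymes (AARS near -1.11 on average with selinexor and -0.61 with XPO1 siRNA), while HARS and HARS2 lie to the right with XPO1 siRNA (0.28 and 0.27).

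Selinexor lowered part of the mitochondrial set too. Of the 16 genes, 9 fell, 0 rose and 7 were not called, where 26.3% of all genes tested were called lower. The median log2 fold change of the 16 was -0.28 (range -0.92 to 0.12). Without selinexor replicate 1, 11 of 16 fell (median -0.32), where 33.2% of all genes were called lower. No test was made between the mitochondrial and cytosolic sets. The count of 9 was 5 without DMSO replicate 1 and also without DMSO replicate 2, as CARS2, FARS2, LARS2 and NARS2 were then not called. The 3 selinexor libraries lay below the 3 DMSO libraries for 11 of the 16 genes, a pattern found in 32.9% of all genes tested. The groups overlapped for AARS2, HARS2, PARS2, RARS2 and TARS2.

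EARS2, the glutamyl enzyme, also charges mitochondrial glutamine tRNA with glutamate, which an amidotransferase then converts. This gene (chromosome 16, 23533335 to 23569053, minus strand) had 1082, 1154 and 1129 normalized counts with selinexor, against 2070, 2148 and 2159 with DMSO. All selinexor libraries were close together and near the middle between 0 and the DMSO level. It was 1.89-fold lower (log2 fold change -0.92, SE 0.077, limma adjusted p = 3.9e-05; -0.90 without selinexor replicate 1). SARS2, the seryl enzyme, had 236, 235 and 196 with selinexor, against 349, 385 and 414 with DMSO (1.72-fold lower, adjusted p = 0.00103). YARS2, the tyrosyl enzyme, had 461, 579 and 589 with selinexor, against 833, 856 and 764 with DMSO (1.51-fold lower, adjusted p = 0.00351). Neither gene's groups overlapped, and without selinexor replicate 1 SARS2 was 1.78-fold and YARS2 1.4-fold lower.

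MARS2, the methionyl enzyme, had 524, 729 and 644 normalized counts with selinexor, against 854, 964 and 897 with DMSO, and fell 1.44-fold. FARS2 had 144, 169 and 178 with selinexor, against 242, 246 and 206 with DMSO, and fell 1.41-fold (limma adjusted p = 0.0143). Its lowest library rested on an estimated 120 reads, the fewest for any of the 36 genes. IARS2 had 4940, 5750 and 5350 normalized counts with selinexor, against 6721, 6970 and 7006 with DMSO, and fell 1.29-fold (adjusted p = 0.00641). The groups were apart for these 3 genes, whose falls without selinexor replicate 1 were 1.32-fold for MARS2, 1.33-fold for FARS2 and 1.24-fold for IARS2. NARS2 (asparaginyl, log2 fold change -0.29), CARS2 (cysteinyl, -0.27) and LARS2 (leucyl, -0.26) were the smallest falls; each was lost when any of several single libraries was left out (any DMSO library or selinexor replicate 3, and for LARS2 also selinexor replicate 2). WARS2 (-0.34), AARS2 (alanyl, -0.26), VARS2 (valyl, -0.24), RARS2 (arginyl, -0.08), TARS2 (threonyl, -0.05), PARS2 (prolyl, 0.05) and HARS2 (histidyl, 0.12) were not called. AARS2 and VARS2 passed without selinexor replicate 1 (-0.37 and -0.30, adjusted p = 1.89e-04 and 0.00195).

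XPO1 siRNA lowered most cytosolic synthetases as well. Of the 20 genes, 17 fell, 1 rose and 2 were not called, with a median log2 fold change of -0.24 (range -0.63 to 0.28). Over all 17616 genes tested, 54.5% were called, 28.6% lower and 25.9% higher, with a median of 0.00. Of all calls, 47.5% were higher, a share that was 62.4% when the libraries were rescaled to equal totals. Under that scaling CARS, NARS, RARS and SARS were no longer called lower, and QARS was called higher. The XPO1 siRNA libraries lay below the control siRNA libraries for 17 of the 20 genes, a pattern found in 31.2% of all genes tested. These were the same 17 that were called lower.

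FARSB fell most, with 1905, 1879 and 1910 normalized counts with XPO1 siRNA, against 2917, 2968 and 2921 with control siRNA. AARS had 2860, 2902 and 2931 with XPO1 siRNA, against 4481, 4212 and 4615 with control siRNA. IARS had 13770, 13725 and 13612 with XPO1 siRNA, against 19548, 19531 and 19627 with control siRNA. The spread within groups was small beside the gap for each of the 3. FARSB was 1.55-fold lower (log2 fold change -0.63, SE 0.0361, limma adjusted p = 9.76e-09), AARS 1.53-fold (-0.61, SE 0.0396, adjusted p = 2.99e-08) and IARS 1.43-fold (-0.51, SE 0.0293, adjusted p = 9.13e-09).

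WARS had 1863, 1789 and 1739 normalized counts with XPO1 siRNA, against 2587, 2416 and 2686 with control siRNA (1.43-fold lower). MARS had 7061, 6806 and 6899 with XPO1 siRNA, against 9721, 9234 and 9881 with control siRNA (1.39-fold lower). YARS had 5296, 5289 and 5479 with XPO1 siRNA, against 7316, 7304 and 7376 with control siRNA (1.37-fold lower). Their limma adjusted p-values were 7.98e-07, 1.08e-07 and 6.71e-08, and no libraries overlapped. VARS, not called with selinexor, had 5555, 5684 and 5614 normalized counts with XPO1 siRNA, against 9008, 7929 and 8414 with control siRNA, well apart. It was 1.5-fold lower (log2 fold change -0.59, SE 0.0424, adjusted p = 8.46e-08).

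KARS and GARS, the dual-compartment genes, fell 1.21-fold and 1.19-fold with XPO1 siRNA. KARS had 3408, 3359 and 3520 normalized counts with XPO1 siRNA, against 4273, 4249 and 3958 with control siRNA, and GARS 6603, 6504 and 6531 with XPO1 siRNA, against 8094, 7655 and 7593 with control siRNA. The libraries did not overlap in either gene. DARS (log2 fold change -0.36), TARS (-0.23), EPRS (-0.21), CARS (-0.17), LARS (-0.17), RARS (-0.15), SARS (-0.15) and NARS (-0.10) completed the falls. The call of NARS was lost without replicate 2 or 3 of XPO1 siRNA or of control siRNA. FARSA (-0.06) and QARS (0.07) were not called.

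Of the 16 mitochondrial genes, 8 fell, 1 rose and 7 were not called with XPO1 siRNA, with a median log2 fold change of -0.10 (range -0.42 to 0.27). Over all genes tested, 28.6% were called lower and 25.9% higher. Under equal totals 5 of the 16 fell and 3 rose. In that setting 62.4% of the calls over all genes were higher, which is a share of the calls and not of the genes tested. FARS2 had 192, 207 and 211 normalized counts with XPO1 siRNA, against 286, 267 and 264 with control siRNA (1.34-fold lower, limma adjusted p = 9.64e-04). VARS2 had 785, 750 and 757 with XPO1 siRNA, against 1001, 945 and 973 with control siRNA (1.27-fold lower, adjusted p = 5.56e-05). In both genes the groups were apart. EARS2 had 1399, 1254 and 1286 with XPO1 siRNA, against 1581, 1588 and 1743 with control siRNA (1.25-fold lower, adjusted p = 2.16e-04). YARS2 had 683, 686 and 638 with XPO1 siRNA, against 846, 811 and 789 with control siRNA (1.22-fold lower). Here too every XPO1 siRNA library was the lower.

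SARS2 had 285, 275 and 249 normalized counts with XPO1 siRNA, against 347, 307 and 303 with control siRNA (1.18-fold lower, limma adjusted p = 0.0296). IARS2 had 7220, 7141 and 6885 with XPO1 siRNA, against 7983, 8104 and 8234 with control siRNA (1.14-fold lower). The gap was narrow for SARS2 and wider for IARS2. CARS2 (log2 fold change -0.15) and NARS2 (-0.14) fell least, and the libraries of CARS2 overlapped. CARS2, NARS2 and SARS2 were not called under equal totals, CARS2 was lost without XPO1 siRNA replicate 1 or 2 or control siRNA replicate 2 or 3, and SARS2 was also lost without control siRNA replicate 1, XPO1 siRNA replicate 2 or XPO1 siRNA replicate 3. LARS2, with 2137, 2024 and 1979 with XPO1 siRNA against 1957, 1897 and 1860 with control siRNA, did not overlap in the upward direction but was not called (0.10, adjusted p = 0.057). It was called higher under equal totals, a 30% trimmed mean or a minimum mean of 50, and without control siRNA replicate 1. AARS2, MARS2, RARS2, TARS2 and WARS2 lay between -0.06 and -0.03, and PARS2 was at 0.13.

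The 2 histidyl enzymes were the synthetases called higher with XPO1 siRNA. HARS (hg19, chromosome 5, 140052758 to 140071610, minus strand) had 3256, 3218 and 3137 normalized counts with XPO1 siRNA, against 2656, 2553 and 2728 with control siRNA. HARS2 (140071011 to 140078890, plus strand) had 2118, 2036 and 1932 with XPO1 siRNA, against 1676, 1735 and 1640 with control siRNA. Each XPO1 siRNA library of either gene was above all of its control siRNA libraries, as in 29.2% of all genes tested. HARS was 1.21-fold higher (log2 fold change 0.28, SE 0.0384, limma adjusted p = 3.80e-05) and HARS2 1.2-fold (0.27, SE 0.0452, adjusted p = 2.02e-04). With selinexor HARS had 3269, 2774 and 2604 normalized counts, against 2552, 2610 and 2644 with DMSO, and HARS2 1833, 2008 and 1751 with selinexor, against 1634, 1764 and 1730 with DMSO. These groups overlapped and neither gene was called (log2 fold changes 0.14 and 0.12, adjusted p = 0.262 and 0.263). HARS2 was called higher with selinexor under equal totals. The log2 ratio of HARS to HARS2 was 0.62 ± 0.189 with selinexor and 0.61 ± 0.0393 with DMSO, and 0.66 ± 0.0396 with XPO1 siRNA and 0.65 ± 0.0893 with control siRNA (SD, n = 3 each).

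The 2 genes are a head-to-head pair. The 86 bases from one RefSeq start to the other, both included (GRCh38.p14), are shown on the plus strand because they hold all that lies between the starts of the pair, and the capitals mark the first transcribed base of HARS on the left, which is read from the other strand, and of HARS2 on the right.
HARS and HARS2, chr5:140691370-140691455, plus strand: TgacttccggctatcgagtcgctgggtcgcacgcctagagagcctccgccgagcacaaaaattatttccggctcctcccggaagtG
In the deposited table the rows of HARS and HARS2 overlap by 600 bases on opposite strands. The libraries were made with a stranded kit, but the use of strand in counting is not given in the sources used here, so reads of the shared bases cannot be assigned to one gene with certainty. The same limit holds for other rows with a neighbour on the opposite strand: MARS with ARHGAP9 (13371 bases) and the stress gene DDIT3 (983 bases), YARS2 with DNM1L (18064 bases), AARS2 with TMEM151B (7854 bases) and SARS2 with MRPS12 (2616 bases). VARS2 overlaps GTF2H4 by 5866 bases, and SARS2 the row CTC-360G5.9 by 3298 bases, on the same strand, where strand could not separate them. The overlaps are of whole gene rows, introns included, and the list is not complete. Some overlaps outside it are longer, such as CARS with CARS-AS1 (11868 bases, opposite strand). Rows named Y_RNA span AARS (37250 bases) and EARS2 (35719 bases) from end to end on the opposite strand. A row named SNORA26 spans WARS2 (109457 bases) in the same way on the same strand. These lengths are those of the whole synthetase rows. Whether rows of these names stand for transcripts of such width was not tested, so no limit on read assignment is drawn from them.

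Cytosolic and mitochondrial enzymes for the same amino acid form 17 pairs, with EPRS set against EARS2 and PARS2 and both phenylalanyl subunits against FARS2. With selinexor the cytosolic log2 fold change was the lower in 13 pairs, and with XPO1 siRNA in 12. The log2 ratios of the libraries did not overlap in 11 of these pairs in each comparison. How often the ratio of any 2 other genes lies apart was not computed, so the 11 have no share to be read against. For single genes, every treated library lay below every control library in 32.9% of all genes tested with selinexor and 31.2% with XPO1 siRNA. Among the 13 pairs, the ratios overlapped for MARS to MARS2 (change of -0.13) and VARS to VARS2 (-0.02) with selinexor. Among the 12, they overlapped for CARS to CARS2 (-0.02) with XPO1 siRNA. AARS and AARS2 diverged most: the log2 ratio of AARS to AARS2 was -0.04 ± 0.0764 with selinexor and 0.81 ± 0.0204 with DMSO, a change of -0.85. The same ratio was 0.76 ± 0.0246 with XPO1 siRNA and 1.35 ± 0.0328 with control siRNA, a change of -0.58 (SD, n = 3 each). The ratios did not overlap in either comparison. TARS to TARS2 changed by -0.61 with selinexor and -0.17 with XPO1 siRNA, and WARS to WARS2 by -0.54 with selinexor and -0.47 with XPO1 siRNA. In the opposite direction, SARS to SARS2 was 5.26 ± 0.0757 with selinexor and 4.57 ± 0.0937 with DMSO, a change of 0.69, and EPRS to EARS2 changed by 0.47. With XPO1 siRNA the ratios of these 2 pairs overlapped (changes of 0.09 and 0.11), and the 1 pair apart in that direction was FARSA to FARS2 (0.36). No test was made across pairs, which are not replicates.

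**Figure D3:**
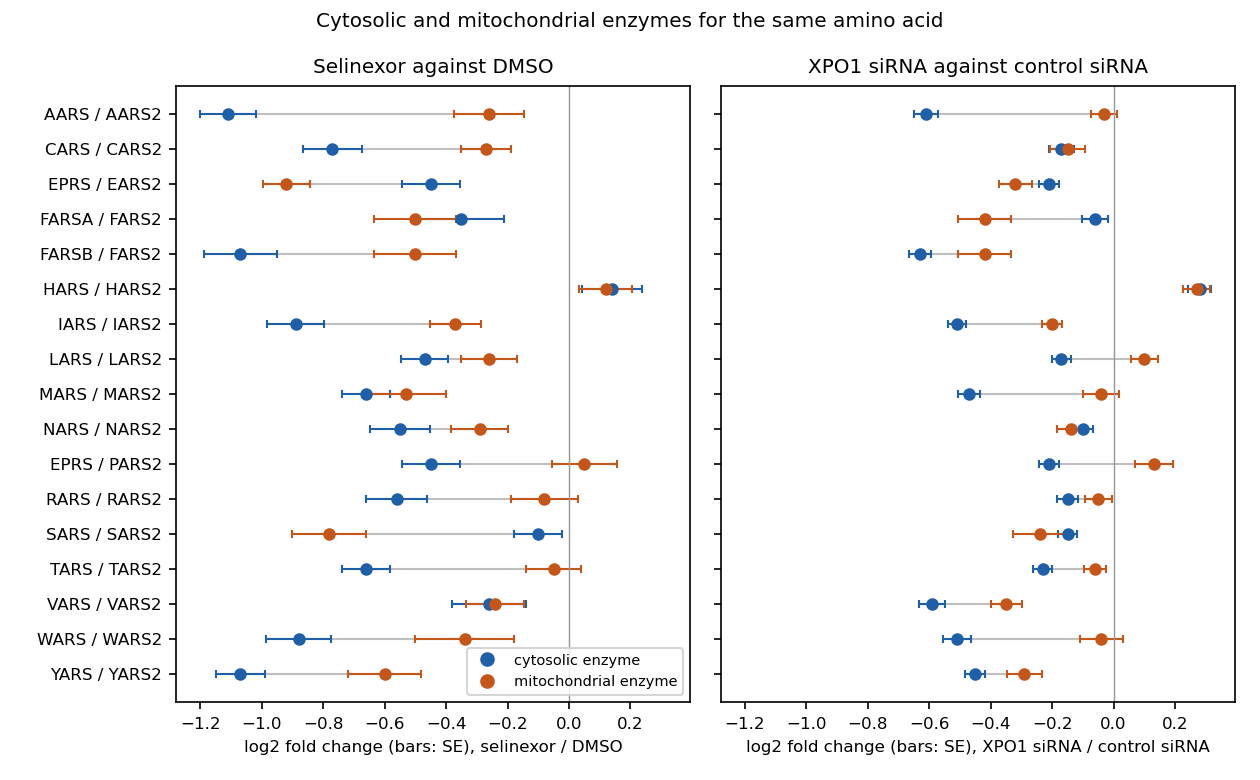
log2 fold change with SE (limma, 3 libraries per group) for the cytosolic and mitochondrial enzymes of 17 pairs, selinexor against DMSO (left) and XPO1 siRNA against control siRNA (right). The cytosolic point lies to the left in 13 and 12 pairs, and the HARS and HARS2 points coincide above 0 in both panels.

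Set side by side, 15 cytosolic and 7 mitochondrial genes fell in both comparisons, and no gene was called in opposite directions. Over the 17308 genes tested in both, 18.3% were called lower in both and 2.54% in opposite directions. The 7 were CARS2, EARS2, FARS2, IARS2, NARS2, SARS2 and YARS2. SARS, VARS and VARS2 were called lower with XPO1 siRNA but not with selinexor, LARS2 and MARS2 the other way round, and FARSA, QARS, AARS2, PARS2, RARS2, TARS2 and WARS2 in neither comparison. The effects themselves were then compared, as the selinexor log2 fold change minus the XPO1 siRNA log2 fold change. The treatments also differed in duration and in delivery, so the kind of XPO1 loss and these features cannot be told apart.

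For 15 of the 36 genes the effects differed, all through a lower value with selinexor, where 31.8% of 17308 genes tested were called, 20.2% below 0 and 11.6% above 0. These were 11 of 20 cytosolic genes (median difference -0.31) and 4 of 16 mitochondrial genes (median -0.16), beside a median of -0.07 over all genes tested. The mitochondrial count was near the 20.2% of all genes. YARS differed by -0.62 on the log2 scale (SE 0.0783, limma adjusted p = 7.50e-05), EARS2 by -0.60 (SE 0.0911, adjusted p = 3.07e-04) and CARS by -0.60 (SE 0.1, adjusted p = 6.64e-04). CARS fell 1.7-fold with selinexor and 1.12-fold with XPO1 siRNA, where it had 1623, 1713 and 1713 normalized counts, against 1870, 1887 and 1923 with control siRNA. TARS differed by -0.43 (adjusted p = 9.61e-04), AARS by -0.49 (adjusted p = 0.00208) and GARS by -0.32. With XPO1 siRNA TARS had 9106, 8958 and 9066 normalized counts, against 10665, 10730 and 10406 with control siRNA, a gap larger than the spread in either group.

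Without selinexor replicate 1, 16 of 20 cytosolic genes were called below 0 and 1 above 0 (median -0.29), and 5 of 16 mitochondrial genes below 0 (median -0.14), where 27.5% of all genes were called below 0 and 16.5% above 0. The mitochondrial count was again near the share of all genes. The cytosolic gene above 0 was VARS. Its difference of 0.32 with all libraries was not called, and without selinexor replicate 1 it was 0.19. MARS2 fell with selinexor and had a log2 fold change of -0.04 with XPO1 siRNA (751, 834 and 768 normalized counts with XPO1 siRNA, against 838, 764 and 812 with control siRNA, overlapping), a difference of -0.49 (limma adjusted p = 0.0222). That difference was not called without replicate 2 of DMSO, of XPO1 siRNA or of control siRNA, and neither was that of WARS, which was also lost without DMSO replicate 3 and without replicate 1 of XPO1 siRNA or control siRNA.

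**Figure D4:**
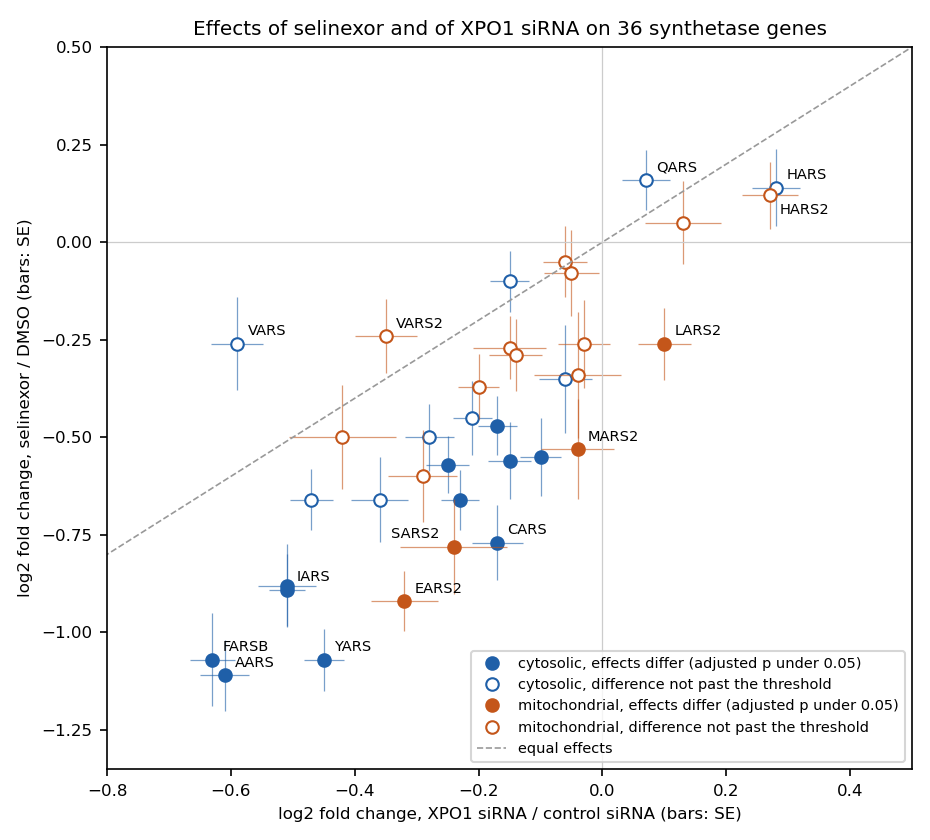
log2 fold change with selinexor (vertical) against that with XPO1 siRNA (horizontal) for the 36 genes, with SE bars (3 libraries per group), filled where the 2 effects differed at an adjusted p under 0.05 and open where not; the dashed line marks equal effects. All 15 filled points lie under the line, among them YARS (-1.07 and -0.45), and VARS lies above it (-0.26 and -0.59).

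The scaffolds of the multisynthetase complex fell too, 3 of 3 in each comparison. Over all genes tested, 26.3% were called lower with selinexor and 28.6% with XPO1 siRNA. With selinexor replicate 1 left out, 3 of 3 still fell with selinexor (median log2 fold change -0.83, range -0.96 to -0.63). In that setting 33.2% of all genes were called lower. EEF1E1 averaged 270 ± 70.1 normalized counts with selinexor and 589 ± 43.9 with DMSO (SD, n = 3 each), 2.22-fold lower, and was 1.27-fold lower with XPO1 siRNA. AIMP2 fell 1.77-fold with selinexor and 1.21-fold with XPO1 siRNA, and AIMP1 1.68-fold with selinexor and 1.42-fold with XPO1 siRNA. The limma adjusted p-values of these 6 falls, with all libraries, ranged from 5.72e-07 to 0.00109.

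ATF4, which drives many synthetase genes, was itself lower with selinexor. It averaged 6007 ± 348 normalized counts with selinexor and 10494 ± 368 with DMSO, 1.75-fold lower (limma adjusted p = 9.29e-05). With XPO1 siRNA it averaged 11566 ± 325, against 11712 ± 545 with control siRNA (log2 fold change -0.02, adjusted p = 0.727; SD, n = 3 each). ATF4 was named after its values were seen. Of 32 ATF4 targets other than synthetases, 30 were tested: 20 fell and 5 rose with selinexor (median log2 fold change -0.89), and 24 fell and 3 rose with XPO1 siRNA (-0.51). The shares of all genes tested were 26.3% lower and 22.9% higher with selinexor, and 28.6% lower and 25.9% higher with XPO1 siRNA. Among the targets with the smallest p, PHGDH, which opens serine synthesis, fell 4.15-fold with selinexor and 1.92-fold with XPO1 siRNA, PSAT1 of the same route 3.04-fold and 1.82-fold, and ASNS, asparagine synthetase, 2.52-fold and 1.7-fold. The 5 that rose with selinexor, named after their values were seen, were SESN2, a leucine sensor (3.73-fold), the transcription factors DDIT3 (1.77-fold) and ATF3 (1.52-fold), the mTORC1 inhibitor DDIT4 (1.57-fold) and the pseudokinase TRIB3 (1.29-fold). With XPO1 siRNA SESN2 rose 1.41-fold, DDIT3 was not called (log2 fold change 0.18), and DDIT4, ATF3 and TRIB3 fell 2.17-fold, 1.6-fold and 1.28-fold. Of the 17 kinases and regulators of the integrated stress response, 11 fell and 2 rose with selinexor (median -0.44), and 9 fell and 2 rose with XPO1 siRNA (-0.10; 5 and 4 under equal totals). The 2 rises were 1 when any library other than control siRNA replicate 2 was left out. Under equal totals 62.4% of the calls over all genes with XPO1 siRNA were higher. PPP1R15A, which directs dephosphorylation of eIF2, rose 2.12-fold with selinexor and 2.04-fold with XPO1 siRNA, while EIF2S1 and EIF2S2, subunits of eIF2, fell 1.81-fold and 1.75-fold with selinexor and 1.27-fold and 1.43-fold with XPO1 siRNA. These counts were 21 and 6 of 30 targets, and 13 and 2 of 17 regulators, for falls and rises with selinexor when selinexor replicate 1 was left out. In that setting 33.2% of all genes were called lower and 27.9% higher.

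Beside the motifs, the 6 cytosolic genes with a TGATGNAA window had log2 fold changes with selinexor of -1.11 for AARS, -0.89 for IARS, -0.77 for CARS, -0.66 for MARS, -0.66 for TARS and -0.55 for NARS. All 6 fell in both comparisons, though NARS was called with XPO1 siRNA in only 8 of 15 settings. Of the 10 cytosolic genes without a match, 6 fell in both and 4 did not (FARSA, HARS, QARS and SARS). The log2 fold changes of those 6 with selinexor were -1.07 for FARSB, -0.88 for WARS, -0.57 for GARS, -0.56 for RARS, -0.50 for KARS and -0.45 for EPRS. Over the 17308 genes tested in both comparisons, 18.3% were called lower in both. The part of the motif in these falls was not tested. YARS2, the mitochondrial gene with a match, fell in both comparisons. IARS, EARS2 and CARS2, with an E-box, fell in both, and MARS2 with selinexor. CARS2 was called in only 9 of 15 settings with selinexor and 7 of 15 with XPO1 siRNA.

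Genes that make, export and modify tRNAs were counted next, to be read against all genes tested, of which 26.3% were called lower and 22.9% higher with selinexor, and 28.6% lower and 25.9% higher with XPO1 siRNA. Of 20 genes of tRNA nuclear export and end processing, 17 fell and 0 rose with selinexor (median log2 fold change -0.42), and 11 fell and 2 rose with XPO1 siRNA (-0.19). The 17 were 10 without DMSO replicate 2 and 11 without DMSO replicate 3, and the 2 rises with XPO1 siRNA were 0 without XPO1 siRNA replicate 1 or 2 or control siRNA replicate 1, and 4 under equal totals. XPOT, the tRNA export receptor and a relative of XPO1, fell 2.16-fold with selinexor and 1.4-fold with XPO1 siRNA, and TSEN15, a subunit of the tRNA splicing endonuclease, 2.61-fold and 1.87-fold. Of 48 tRNA modification enzymes, 29 fell and 2 rose with selinexor (-0.40), and 20 fell and 7 rose with XPO1 siRNA (-0.09). The 29 were 19 without DMSO replicate 2, the 2 rises were 1 without any single DMSO library or selinexor replicate 3, and the 7 were 4 without XPO1 siRNA replicate 1 and 12 under equal totals. Of 25 genes of RNA polymerase III and its factors, 13 fell and 1 rose with selinexor (-0.36), and 11 fell and 7 rose with XPO1 siRNA (-0.01), where the share that rose was near that of all genes. Under equal totals 5 fell and 11 rose with XPO1 siRNA, and 4 rose without XPO1 siRNA replicate 2 or 3. When selinexor replicate 1 was left out, 17 of 20 (median -0.39), 34 of 48 (-0.35) and 17 of 25 (-0.34) genes of these 3 lists fell with selinexor, where 33.2% of all genes were called lower. GTF3A, the factor TFIIIA, fell 1.74-fold in both comparisons, and POLR3G, a polymerase III subunit, 2.39-fold with selinexor and 2.06-fold with XPO1 siRNA.

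Factors that act after charging were measured as well, and are to be read against the same shares of all genes. Of 11 cytosolic elongation and termination factors, 4 fell and 2 rose with selinexor (median log2 fold change -0.13), and 5 fell and 0 rose with XPO1 siRNA (-0.23). EIF5A, a translation factor that carries hypusine, fell 1.85-fold with selinexor and 1.71-fold with XPO1 siRNA. Of 16 mitochondrial translation factors and charging partners, 15 were tested: 7 fell and 0 rose with selinexor (-0.21), and 7 fell and 3 rose with XPO1 siRNA (-0.08). QRSL1, a subunit of the amidotransferase that acts after EARS2, fell 1.59-fold with selinexor and 1.29-fold with XPO1 siRNA, and TUFM, the mitochondrial elongation factor Tu, 1.42-fold and 1.23-fold. Of 8 trans-editing and related proteins, 3 fell and 0 rose with selinexor (-0.19), and 6 fell and 0 rose with XPO1 siRNA (-0.13). DTD1, which removes D-amino acids from tRNA, fell 1.18-fold with selinexor and 1.32-fold with XPO1 siRNA. With selinexor replicate 1 left out, 6 of the 11 elongation factors fell with selinexor (median -0.28), 7 of the 15 mitochondrial factors fell and 2 rose (-0.18), and 4 of the 8 trans-editing proteins fell (-0.17). The rises of elongation factors with selinexor were 1 without any single DMSO library. With XPO1 siRNA, equal totals gave 3 elongation factors that rose, 3 mitochondrial factors that fell and 2 trans-editing proteins that fell. The last count was 3 without XPO1 siRNA replicate 2 or control siRNA replicate 3. Under equal totals 62.4% of the calls over all genes with XPO1 siRNA were higher.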

How the data were processed

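IMR5 cells in 4 groups of 3 were sequenced from total RNA with a stranded kit, per the labels' protocols. Sample titles gave the groups and replicate numbers. STAR 2.7.3a, Partek, DESeq2 and the build hg19 stand in the submitters' processing notes; which annotation and counting options were used, and whether strand was, is not given in the sources used here. What the authors deposited is a signal per gene, read counts scaled by DESeq2 size factors, with each table normalized on its own. The knockdown table held 3 columns of per-sample values that match no sample here; they were not used. Low values (0.3 to 60) were whole multiples of 1 step per column, within 0.02, for only 62% to 66.8% of them, so whole reads could not be recovered, no count model was fitted, and depths are estimates.

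A gene was tested where its mean in a table's 6 libraries reached 10. The test was limma 3.58.1 under R 4.3.3, two-sided, on log2(value + 1) with eBayes following the intensity trend, with Benjamini-Hochberg adjustment over all genes and a threshold of 0.05. Fold changes are on that scale, on which changes of low genes come out too small. The difference of effects was fitted on 12 libraries with 4 group means. The steps were tested on simulated data. Alternatives were no filter, a minimum mean of 50, pseudocounts of 0.5 and 5, equal totals, a 30% trimmed mean, no trend, a replicate block, and each replicate left out. Gene coordinates are those of the deposited tables (hg19). Transcript lengths came from GENCODE 29 by gene symbol and promoters from RefSeq. Tables and plots were made in Python 3.11.15 with numpy 2.4.6, pandas 2.3.3 and matplotlib 3.10.9.

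The members and lists were chosen with earlier results of these data known. Library values are given for genes called in both comparisons with the same sign that are among the 5 largest changes of a comparison in their class, for up to 6 genes whose effects differ (smallest p), and for GARS and KARS; exceptions are named as such. Of each other list, up to 4 genes with the smallest p in either comparison were eligible.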

Additional observations from a re-analysis of the deposited data

Results flagged for a closer look

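For 15 of the 36 genes the effect of selinexor differed from that of XPO1 siRNA in the limma fit over 12 libraries. Each had an adjusted p under 0.05 over all genes and the lower value under selinexor. Over all 17308 genes tested, 31.8% were called and 20.2% were called below 0. The 15 were 11 of 20 cytosolic genes and 4 of 16 mitochondrial genes, and the mitochondrial count was near that 20.2%. The differences in log2 fold change, selinexor effect minus XPO1 siRNA effect, were -0.62 for YARS, -0.60 for CARS, -0.49 for AARS, -0.45 for NARS, -0.44 for FARSB, -0.43 for TARS, -0.41 for RARS, -0.37 for IARS, -0.37 for WARS, -0.32 for GARS and -0.31 for LARS among cytosolic enzymes. Among mitochondrial enzymes they were -0.60 for EARS2, -0.54 for SARS2, -0.49 for MARS2 and -0.37 for LARS2. LARS2 had a log2 fold change of -0.26 with selinexor and 0.10 with XPO1 siRNA. The part of treatment time, delivery and the share of RN7SL1 and RN7SL2 in these differences was not tested.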

How the results depend on the processing

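The 15 cytosolic falls with selinexor kept their calls in all settings tried, as did those of EARS2, IARS2, MARS2, SARS2 and YARS2. With XPO1 siRNA 14 cytosolic and 6 mitochondrial calls held in all settings, and of the 15 differences of effects 13 did (not WARS and MARS2). Rescaling to equal totals moved the median of all genes by 0.08 (selinexor) and 0.09 (XPO1 siRNA) on the log2 scale. Under it, with selinexor 1 cytosolic (QARS) and 1 mitochondrial (HARS2) gene were called higher, the class medians were -0.49 and -0.20, and RARS2 (0.00) and TARS2 (0.03) changed sign. With XPO1 siRNA 2 cytosolic and 3 mitochondrial genes were called higher and 5 mitochondrial genes lower, the medians were -0.15 and -0.01, and the uncalled FARSA (0.03), AARS2 (0.06), MARS2 (0.05), RARS2 (0.04), TARS2 (0.03) and WARS2 (0.05) changed sign, as did TARS2 (-0.01) in the difference of effects. A mean of 50 or more and a 30% trimmed mean each gave 2 mitochondrial genes called higher with XPO1 siRNA. Apart from the shift that equal totals makes by construction, the cause was not tested.

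Leaving out 1 library at a time, the selinexor counts ranged from 0 to 1 for cytosolic genes called higher and from 5 to 11 for mitochondrial genes called lower, and the cytosolic median from -0.63 to -0.53. With XPO1 siRNA 1 to 3 mitochondrial genes were called higher (3 without control siRNA replicate 1), and for the difference of effects 0 to 1 cytosolic genes were above 0, with a median of -0.36 to -0.29. Values near 0 changed sign: with selinexor PARS2 (-0.02 to 0.11), RARS2 (-0.17 to 0.03), TARS2 (-0.10 to 0.01) and XPO1 (-0.02 to 0.25), with XPO1 siRNA AARS2 (-0.05 to 0.00), and in the difference FARS2 (-0.16 to 0.01), RARS2 (-0.12 to 0.08) and TARS2 (-0.04 to 0.07). Over all genes tested, 3039 to 5065 were called higher and 3474 to 6014 lower with selinexor. Depth limits FARS2 most, at an estimated 120 reads in its shallowest library.

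Deviations of same-numbered libraries correlated at -0.042 to 0.119 in the selinexor comparison and at -0.104 to -0.020 in the XPO1 siRNA comparison. Those of differently numbered libraries correlated at -0.093 to 0.091 and at -0.050 to 0.089. With 3 libraries per group, these values cannot settle whether the replicate numbers pair the samples. With the replicate block, 15 cytosolic and 7 mitochondrial genes were lower with selinexor (CARS2 and LARS2 lost), and 16 and 7 with XPO1 siRNA (NARS and CARS2 lost); no difference of effects was lost.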
